A study of Sus scrofa with 20 samples.

Results

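miR-9, miR-128 and miR-219a are microRNAs (miRNAs, short RNAs that repress the messenger RNAs they pair with) best known from the brain, and their levels were followed here in blood cells before and after a brain bleed. They were taken by name from the deposited count tables. There were 5 entries among the 608 of the human-reference table (hsa-miR-9-5p, hsa-miR-9-3p, hsa-miR-128-3p, hsa-miR-128-1-5p and hsa-miR-219a-1-3p) and 3 among the 284 of the pig-reference table (ssc-miR-9@, ssc-miR-128 and ssc-miR-219a), 8 of 892 in all; the species prefixes are left out below where the table is clear. The libraries were small RNA from mononuclear cells of blood (PBMCs, lymphocytes with monocytes, separated on a density gradient) of female American Yorkshire pigs aged 80 to 90 days, with no genetic change named in the labels. The 10 Control libraries came from untreated animals before intracerebral hemorrhage (ICH), and the 10 ICH libraries from blood taken 6 h after it, a bleed modelled with the pig's own blood, pushed through a catheter into white matter of the frontal lobe. Replicate numbers 1 to 10 occur in both groups and were used as pairs. Sham-operated pigs were not analysed here, and surgery, anaesthesia, time and the bleed cannot be told apart.

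A miRNA hairpin yields an arm from its 5′ side (5p) and an arm from its 3′ side (3p), and usually 1 arm is kept while the other is degraded. miR-9 is abundant in neural progenitors and neurons, and both of its arms are known to act there; in monocytes and neutrophils miR-9-5p is also induced by Toll-like receptor and NF-kB signalling, and it represses NFKB1. miR-128 is enriched in neurons and is also found in lymphoid cells, and miR-219a promotes the maturation of oligodendrocytes, the myelin-forming cells of the brain.

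The RefSeq genes of assembly Sscrofa11.1, a build named by the submitters, include 3 for miR-9, 2 for miR-128 and 1 for miR-219a. MIR9-1 lies on chromosome 4 (93660422 to 93660510) inside the interval of a long non-coding RNA gene, LOC106510131. MIR9-2 lies on chromosome 2 (96076352 to 96076438) between genes, with MEF2C as its nearest annotated neighbour at 45969 bases. MIR9-3 lies on chromosome 7 (54948452 to 54948532), also between genes, 3534 bases from the long non-coding RNA gene LOC106510139. MIR128-1 lies on chromosome 15 (16273557 to 16273638) inside the interval of R3HDM1, and MIR128-2 on chromosome 13 (21038445 to 21038524) inside that of ARPP21, a gene active in neurons. MIR219A lies on chromosome 7 (25250839 to 25250921) in the gap between HSD17B8 and RING1, 1053 and 586 bases away. A related gene, MIR219B, lies on chromosome 1 (268816967 to 268817050) between URM1 and CERCAM. Exons were not part of this annotation, and intronic and exonic positions were not distinguished. The count tables do not split reads among the copies of a gene.

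The entries of the tables overlapped almost completely. The pig entry miR-9@ and human miR-9-5p held equal counts in 20 of 20 libraries, 4845 reads in each table. The pig entry miR-219a equalled human miR-219a-1-3p in 20 of 20 libraries, with 213 reads in each. The pig entry miR-128 equalled human miR-128-3p in 19 of 20, with 1 read more on the human side in Control 10. The 3 pig entries and these 3 human ones are therefore the same reads counted under different names, and for each of these 3 pig entries no other human entry came within 1 read in every library. miR-9-3p and miR-128-1-5p are named only on the human side.

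The 5 human-reference entries spanned a wide range of abundance. miR-128-3p was the 20th most sequenced of 608 entries and took 0.872% of human-reference reads (0.543% to 1.6% by library). miR-9-5p was in place 110, with 0.0173% of reads. miR-9-3p, miR-128-1-5p and miR-219a-1-3p were in places 211, 237 and 246, with 414, 261 and 213 reads over all 20 libraries. Library totals in that table ran from 919313 to 2177834 reads, so the last 3 had medians of 10.5 to 18 reads a library, but none of the 8 entries was at 0 in any library. All 8 passed the filter on low counts and were tested.

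miR-9-5p rose after ICH and was the only 1 of the 5 human-reference members to pass the test. Its read counts ran from 102 to 342 in Control, with a median of 196, and from 97 to 382 in ICH, with a median of 316. As CPM (counts scaled to the library sizes, which were adjusted by TMM), its level was 85.6 at the lowest, 130.2 at the median and 206.1 at the highest in Control, and 102.5, 219.5 and 358.1 in ICH. The groups overlapped, but at this scaling 6 of 10 ICH libraries lay above every Control library. The mean level went from 142.0 ± 35.9 to 215.4 ± 82.1 CPM (SD, n = 10 each). The change was 1.46-fold, a log2 fold change of 0.54 ± 0.11 (SE; edgeR quasi-likelihood test with replicate block, adjusted p = 0.00139), and the TMM-scaled level was higher in 9 of 10 pairs. In bulk PBMCs a change in the number of cells that carry a miRNA and a change in the RNA per cell cannot be told apart.

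The pairs differed in the size of that rise. Pair 3 changed most, from 123.2 to 270.3 CPM (2.18-fold), followed by pair 10, from 132.6 to 262.9 CPM (1.97-fold). Pair 5 was the exception, at 124.6 CPM before and 120.1 CPM after. Pair 1 had the lowest level in both groups, at 85.6 and 102.5 CPM, and pair 2 the highest in both, at 206.1 and 358.1 CPM. Over the 10 pairs, log2 levels in Control and ICH had a Pearson's r of 0.78 (permutation p = 0.0072, adjusted p = 0.041 over 8 relations) and a Spearman's rho of 0.70 (permutation p = 0.0311, adjusted p = 0.196). Without the 2 pairs farthest from the Control median the Pearson's r was 0.49, so the relation was weaker over the other pairs, whose Control levels span a narrower range.

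**Figure D1:**
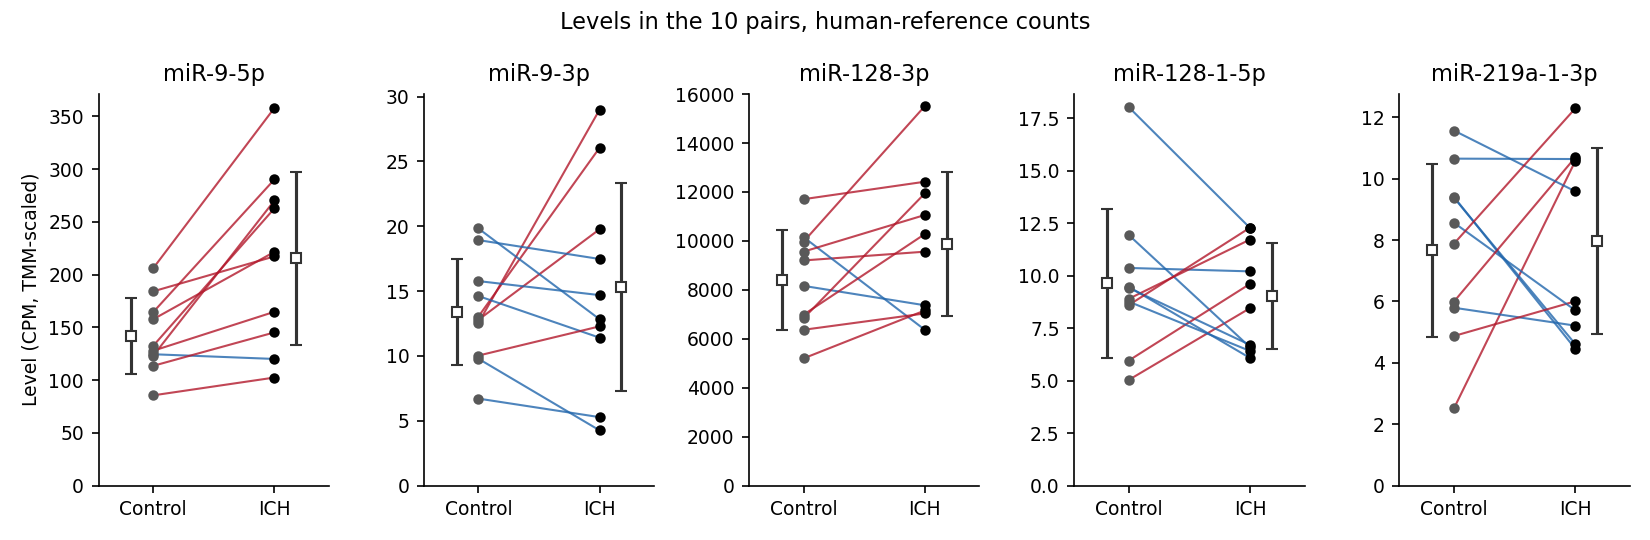
Levels of the 5 human-reference entries in CPM (TMM-scaled, each panel with its own linear axis from 0) in the 10 Control and 10 ICH libraries; a line joins the libraries of a replicate number, red where ICH is higher and blue where it is lower, and squares with bars give the group mean and SD. The lines of miR-9-5p rise in 9 of 10 pairs, while those of miR-9-3p, miR-128-1-5p and miR-219a-1-3p rise in 4 of 10 each.

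That 1 of 5 members rose has to be read against the whole table, in which 13.1% of the 245 human-reference miRNAs tested rose and 6.12% fell (32 and 15; adjusted p under 0.05 with the block). With library totals in place of TMM the split was 15 rising and 24 falling, with upper-quartile scaling 18 and 29, and with deposited RPM in limma 18 and 22. Those first 2 scalings moved the median log2 fold change of all miRNAs tested from 0.03 to -0.08 and -0.09. Relative to that median, miR-9-5p was 0.52 higher with TMM, 0.51 with library totals and 0.52 with upper-quartile scaling. A change of scaling shifts all miRNAs by nearly the same amount, so these values are near equal by construction. They are no separate evidence for the rise.

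The pig-reference table gave the same reads another scaling. There miR-9@ rose 1.39-fold, a log2 fold change of 0.48 ± 0.12 (SE; edgeR with replicate block, adjusted p = 0.00543), and its TMM-scaled level was higher in 9 of 10 pairs. Relative to that table's own median of -0.04 the difference was again 0.52, but these are the same reads and no second observation. This was 1 of 3 pig members rising, beside 11.7% of the 179 pig-reference miRNAs tested rising and 10.1% falling (21 and 18; 35 and 9 with upper-quartile scaling).

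The call depended on the pairing. Without the block the log2 fold change of miR-9-5p was 0.60 ± 0.20 (SE; edgeR, adjusted p = 0.0801) and that of miR-9@ 0.52 ± 0.19 (adjusted p = 0.125). Without the block 2.86% of the 245 human-reference miRNAs rose and 0.816% fell (3.67% in all), and 0% of the 179 pig-reference miRNAs passed.

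miR-9-3p, the other arm of the miR-9 hairpin, did not pass the test. Its level was 6.71, 12.9 and 19.8 CPM (lowest, median, highest) in Control and 4.26, 13.8 and 29.0 CPM in ICH. The ICH libraries were more spread, with 2 above and 2 below every Control library. The log2 fold change was 0.12 ± 0.21 (SE; edgeR with replicate block, adjusted p = 0.774), with 4 of 10 pairs higher. Pair 2 went from 16 to 26 reads and pair 8 from 11 to 4.

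Whether the arms moved apart was tested through their ratio within a library, in which scaling between libraries enters only through the pseudocount of 1 CPM. The log2 ratio of miR-9-5p to miR-9-3p averaged 3.33 ± 0.44 before ICH and 3.81 ± 0.69 after it (SD over 10 libraries). The mean difference within pairs was 0.48 ± 0.17 (SE), with the ratio higher in 8 of 10 pairs. The exact two-sided sign-flip permutation test gave p = 0.0234, and p = 0.0586 after Benjamini-Hochberg adjustment over 5 ratios, which does not pass. It did pass with a pseudocount of 5 CPM (adjusted p = 0.0342), in the deposited filtered counts (adjusted p = 0.0342), and without pair 2 or pair 4 (adjusted p = 0.0293 and 0.0391), so this call lay at the threshold.

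As a share of both arms, miR-9-3p took 9.05% of miR-9 reads in Control (203 of 2243; Wilson 95% interval 7.93% to 10.3%) and 7% in ICH (211 of 3016; 6.14% to 7.96%). By library the share ran from 5.05% to 12.2% in Control and from 1.92% to 10.7% in ICH. These intervals cover counting error only, since the reads carry no molecular identifiers and can be copies of 1 molecule.

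miR-128-3p was the most abundant member, and its change did not pass the test. Its level was 5201, 8683 and 11706 CPM (lowest, median, highest) in Control and 6369, 9921 and 15509 CPM in ICH. The groups overlapped broadly, with 3 of 10 ICH libraries above every Control library. Its mean of 8416 ± 2036 CPM became 9871 ± 2947 CPM (SD over the 10 libraries of each group). The log2 fold change was 0.21 ± 0.11 (SE; edgeR with replicate block, adjusted p = 0.206), and 8 of 10 pairs were higher.

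Pairs 3 and 4 of miR-128-3p were lower after ICH, pair 3 from 8164 to 7371 CPM (0.903-fold) and pair 4 from 10155 to 6369 CPM (0.627-fold), and pair 8 had the largest rise, from 6840 to 11943 CPM (1.75-fold). Without pair 4 the log2 fold change was 0.26 ± 0.097 (SE; edgeR with replicate block, adjusted p = 0.0501) in the human-reference counts. For the pig entry miR-128 the estimate was 0.15 ± 0.11 over all pairs (adjusted p = 0.361) and 0.29 ± 0.091 without pair 4 (adjusted p = 0.0225), so leaving out 1 pair brought it past the threshold in that table.

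miR-128-1-5p, the opposite arm of the MIR128-1 hairpin, was scarce. Its level was 5.04, 9.16 and 18.03 CPM (lowest, median, highest) in Control and 6.08, 9.03 and 12.3 CPM in ICH, with the ICH range inside that of Control. The log2 fold change was -0.08 ± 0.22 (SE; edgeR with replicate block, adjusted p = 0.87), and 4 of 10 pairs were higher. It made up 0.107% of the reads of both arms (261 of 244305), and the 3p arm outnumbered it 935-fold over all libraries. Reads of the 3p entry can come from either miR-128 gene, so this is not the ratio of 1 hairpin. The log2 ratio of miR-128-3p to miR-128-1-5p averaged 9.66 ± 0.50 before ICH and 9.92 ± 0.52 after it (SD over 10 libraries), a difference within pairs of 0.26 ± 0.12 (SE; exact sign-flip permutation test, p = 0.0527, adjusted p = 0.0879), with 7 of 10 pairs higher.

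**Figure D2:**
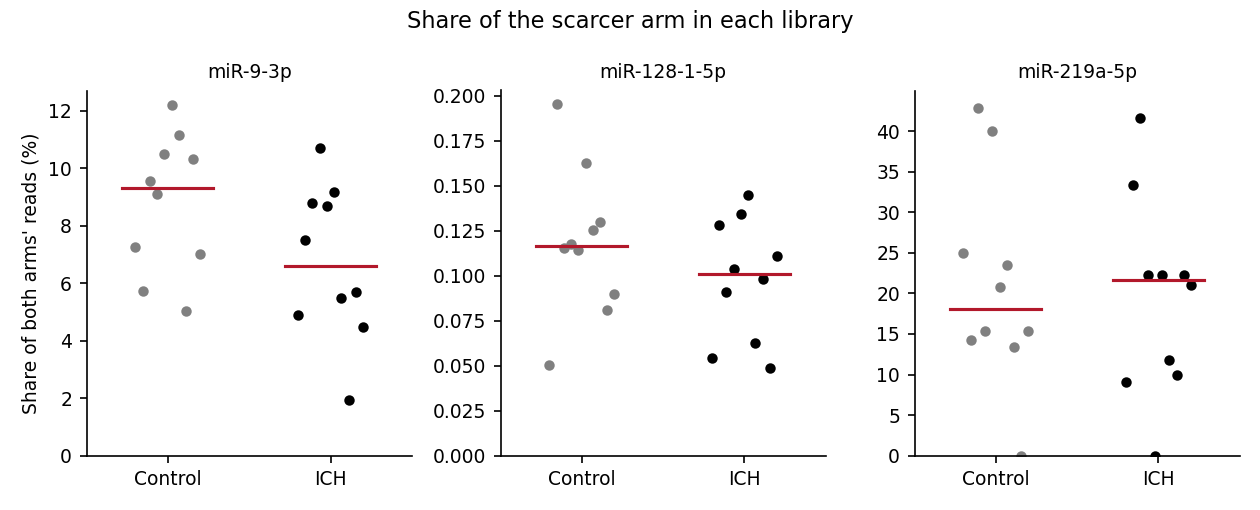
Share of the scarcer arm among the reads of both arms (percent, linear axes from 0) in each of the 10 Control and 10 ICH libraries, with red lines at the group medians. miR-9-3p had a median share of 9.33% in Control and 6.59% in ICH, miR-128-1-5p stayed under 0.2% in every library, and miR-219a-5p was the scarcer arm in all 20.

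miR-219a was close to the lower limit of these libraries. miR-219a-1-3p had 3 to 19 reads per Control library and 4 to 15 per ICH library. Its level was 2.52, 8.22 and 11.6 CPM (lowest, median, highest) in Control and 4.46, 7.80 and 12.3 CPM in ICH, and the groups overlapped almost fully. The log2 fold change was 0.05 ± 0.26 (SE; edgeR with replicate block, adjusted p = 0.936), with 4 of 10 pairs higher, and that of the pig entry miR-219a was -0.02 ± 0.25 (adjusted p = 0.97). The sign of both flipped with the scaling, as it did between the tables. No change was detected, with SEs of 0.26 (human reference) and 0.25 (pig reference) on the log2 scale.

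The sequenced arm of miR-219a was mainly the 3p arm. miR-219a-5p, the arm studied in oligodendrocytes and named here after its values were seen, had 55 reads over all 20 libraries against 213 for miR-219a-1-3p. It took 20.5% of the reads of both (Wilson 95% interval 16.1% to 25.8%) and was below the 3p arm in 20 of 20 libraries. The related entries were scarcer still, with 1 read for miR-219a-2-3p, 8 for miR-219b-3p and 21 for miR-219b-5p in all. The count of 1 stood under another name in the pig table, as miR-219b-3p, in the same library (ICH 2).

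**Figure D3:**
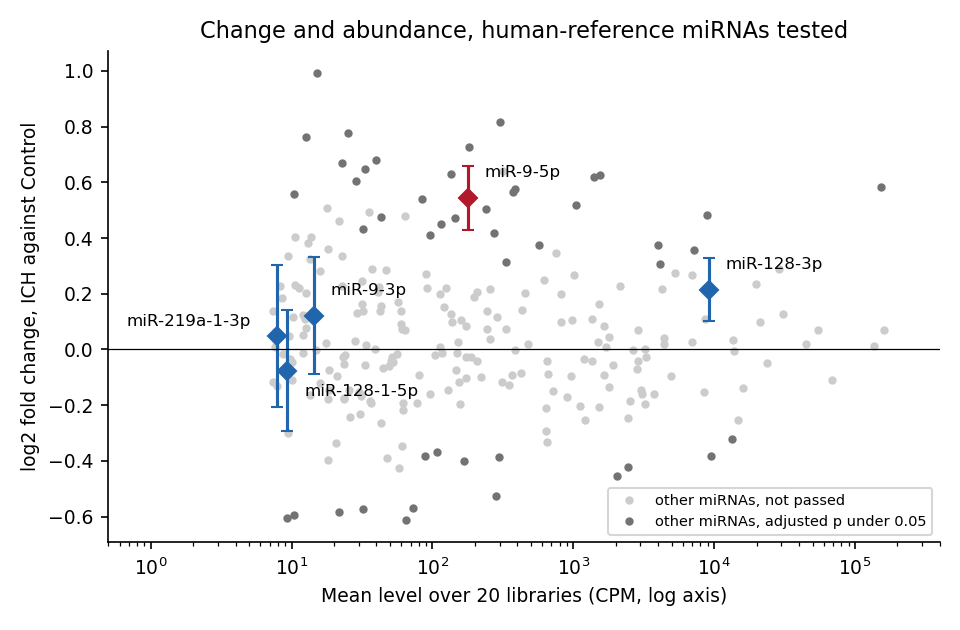
Log2 fold change (ICH against Control, edgeR with replicate block) against mean level in CPM on a log axis for the 245 human-reference miRNAs tested; diamonds with SE bars are the 5 members, red where the adjusted p is under 0.05. miR-9-5p lies at 0.54 among miRNAs of moderate abundance, and the other 4 members lie between -0.08 and 0.21.

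Whether miR-9-5p and miR-128-3p changed differently was tested through their ratio. It averaged -5.88 ± 0.51 on the log2 scale before ICH and -5.56 ± 0.70 after it (SD over 10 libraries), a difference within pairs of 0.32 ± 0.21 (SE; exact sign-flip permutation test, p = 0.164, adjusted p = 0.205), with 6 of 10 pairs higher. That miR-9-5p passed its test and miR-128-3p did not is therefore not shown to be a difference between them. Over pairs, the change in miR-9-5p and that in miR-128-3p had a Pearson's r of -0.40 (permutation p = 0.258, adjusted p = 0.344) and a Spearman's rho of -0.59 (permutation p = 0.0807, adjusted p = 0.215), with r = -0.34 without the 2 farthest pairs.

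miR-9-5p was set against markers of the cell types that a PBMC preparation holds. miR-223, an miRNA of myeloid cells, rose over the same interval (log2 fold change of miR-223-3p 0.63 ± 0.15 SE; edgeR with replicate block, adjusted p = 0.00856). The log2 ratio of miR-9-5p to miR-223-3p averaged -3.09 ± 0.55 before ICH and -3.18 ± 0.66 after it (SD over 10 libraries). The difference was -0.10 ± 0.19 (SE; exact sign-flip permutation test, p = 0.746, adjusted p = 0.746), so no change of miR-9-5p against miR-223-3p was detected. Pair 4 had the lowest difference, at -1.61, and without it the mean difference was 0.07.

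miR-150, an miRNA of mature lymphocytes, fell (log2 fold change of miR-150-5p -0.38 ± 0.10 SE; edgeR with replicate block, adjusted p = 0.00898). The log2 ratio of miR-9-5p to miR-150-5p went from -6.25 ± 0.52 to -5.33 ± 0.84 (SD, n = 10 each), a 1.89-fold rise of the ratio. The difference within pairs was 0.92 ± 0.16 (SE; exact sign-flip permutation test, p = 0.00391, adjusted p = 0.0195), and 9 of 10 pairs were higher. Pair 4 was again the exception, at -0.05. This ratio also passed without the pairing (permutation test with 100000 resamples, adjusted p = 0.0482). Because miR-9-5p rose and miR-150-5p fell in these same libraries, a rise of their ratio follows from those changes. It is no separate evidence for the rise of miR-9-5p, which alone did not pass without the block (edgeR, adjusted p = 0.0801).

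**Figure D4:**
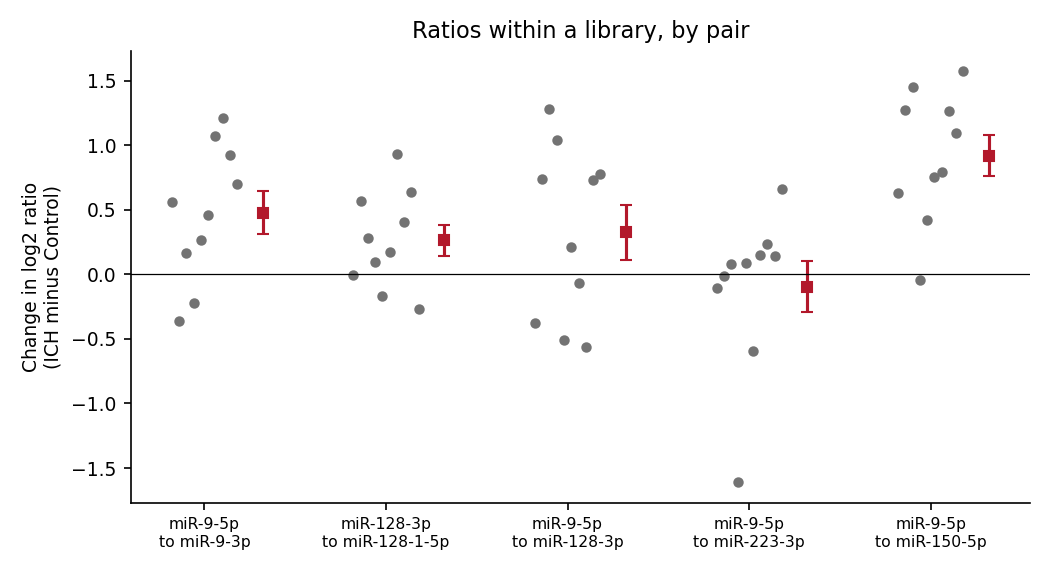
Change in 5 log2 ratios within a library (ICH minus Control), 1 point per pair, with red squares and bars for the mean and its SE. The ratio of miR-9-5p to miR-150-5p lies above 0 in 9 of 10 pairs, and that of miR-9-5p to miR-223-3p scatters around 0 apart from pair 4 at -1.61.

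Entries of the marker lists were counted in the same fits, against the shares of 13.1% rising and 6.12% falling over all human-reference miRNAs tested. Of 9 myeloid entries tested 3 rose (miR-27a-5p with both arms of miR-223) and 0 fell, and their summed level ran from 19405 to 22465 CPM in Control and from 22285 to 25186 CPM in ICH. Of 8 lymphocyte entries 0 rose and 3 fell, with sums of 27084 to 37284 CPM in Control and 21467 to 34699 CPM in ICH. Of 4 erythroid entries 2 rose (110.8 to 812.5 CPM in Control, 429.0 to 1334 CPM in ICH), and of 6 platelet entries 1 rose (40497 to 58153 CPM and 43537 to 57482 CPM). The platelet sums averaged 48677 ± 6013 CPM in Control and 49257 ± 4681 CPM in ICH (SD, n = 10 each). Most of these sums was miR-191-5p, with means of 44868.3 CPM in Control and 45334.5 CPM in ICH, so they say little about the scarcer entries. The platelet entry that rose was miR-126-3p, from a mean of 300.6 to 440.3 CPM. Its log2 fold change was 0.56 ± 0.10 (SE; edgeR with replicate block, adjusted p = 0.000415), with 10 of 10 pairs higher. In the pig-reference counts, where 11.7% of miRNAs rose and 10.1% fell, 0 of 6 myeloid entries passed (miR-223 has no entry there), 4 of 5 lymphocyte entries fell, 1 of 3 erythroid entries rose and 1 of 5 platelet entries rose. The myeloid sums there overlapped almost fully, at 19389 to 22900 CPM in Control and 19490 to 23184 CPM in ICH. The myeloid sums of the human-reference and pig-reference counts are not the same measure. The entries that rose, miR-27a-5p and both arms of miR-223, are absent from the pig-reference list, and the scaling also differed. The pig-reference sums are therefore no repeat of the human-reference ones. All 608 human-reference entries had reads in some library, so no list marker with an entry could be at 0 throughout. The part of these cell types in the change of miR-9-5p was not tested.

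The tables used here hold no entry named miR-124, the neuron-specific miRNA meant as a check on leakage of brain RNA into blood, so its count was not analysed here. Of the 15 names on a list of other brain-linked miRNAs, 11 had a human-reference entry. miR-138-5p and miR-218-5p, both abundant in neurons, had 11 reads each in 20 libraries, and miR-153-3p and miR-383-5p had 1 read each. miR-129-5p had 119 reads and miR-338-5p, which accompanies miR-219a in oligodendrocytes, had 8. Other entries of the list were less scarce, with 55 reads for miR-129-2-3p, 177 for miR-212-5p and 1813 for miR-330-5p. Most of the list's reads belonged to miR-7-5p, an miRNA also found outside the brain, with 186005 reads and a log2 fold change of 0.27 ± 0.10 (SE; edgeR with replicate block, adjusted p = 0.0632). For miR-7-1-3p, another miR-7 arm, every one of the 10 ICH libraries lay under its paired Control, and the estimate was -0.39 ± 0.15 on the log2 scale (SE; same edgeR fit, adjusted p = 0.0607). Neither entry passed the threshold.

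In the human-reference counts 6 entries of that list were tested, and 1 rose and 2 fell, the 2 being arms of a single hairpin, beside 13.1% rising and 6.12% falling over all miRNAs tested. miR-330-3p rose (0.38 ± 0.11 SE on the log2 scale; edgeR with replicate block, adjusted p = 0.0189); its mean of 489.8 ± 97.9 CPM became 642.7 ± 167 CPM (SD over 10 libraries of each group). Both arms of miR-132, a miRNA induced by neuronal activity and by inflammatory signals, fell, the 3p arm by 0.58 ± 0.15 (adjusted p = 0.00877) and the 5p arm by 0.59 ± 0.21 (adjusted p = 0.0465). The median log2 fold change of the 6 was -0.16, beside 0.03 over all miRNAs tested. In the pig-reference counts 2 were tested and miR-132 fell (-0.65 ± 0.14, adjusted p = 0.00289).

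The miRNAs whose levels followed miR-9-5p most closely over the 20 libraries, among 227 with a mean of at least 10 CPM, were miR-27a-5p (Pearson's r = 0.81), miR-362-5p (0.81), miR-21-5p (0.76), miR-532-5p (0.75) and miR-574-3p (0.74). Of these miR-27a-5p, miR-21-5p and miR-574-3p also rose, by 0.73, 0.58 and 0.68 on the log2 scale, while miR-362-5p and miR-532-5p did not pass (0.15 and 0.23). For miR-128-3p the 5 were let-7d-3p (0.86), miR-30d-5p (0.85), miR-130b-5p (0.82), miR-1343-3p (0.82) and miR-671-3p (0.80), and 0 of them passed the test. These correlations describe libraries that share animals, group differences and scaling, and are given without a test.

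The spread between libraries differed among the members. The SD of log2 CPM in Control was 0.37 for both miR-9-5p and miR-128-3p, beside a median of 0.37 over the miRNAs tested, and 0.52 for miR-219a-1-3p. In ICH it was 0.59 for miR-9-5p, 0.79 for miR-9-3p and 0.43 for miR-128-3p, beside a median of 0.37. The difference in spread was not tested.

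The deposited filtered tables hold fewer reads for each member. The filter kept 99.6% of miR-128-3p reads, 92.6% of miR-9-5p reads, 85.1% of miR-128-1-5p reads, 79.2% of miR-9-3p reads and 70% of miR-219a-1-3p reads. Among miRNAs within 2-fold of the same abundance the median share kept was 99.6%, 93.9%, 80%, 80.7% and 79.8%. For miR-219a-1-3p 7 of 33 such miRNAs had a lower share kept.

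**Figure D5:**
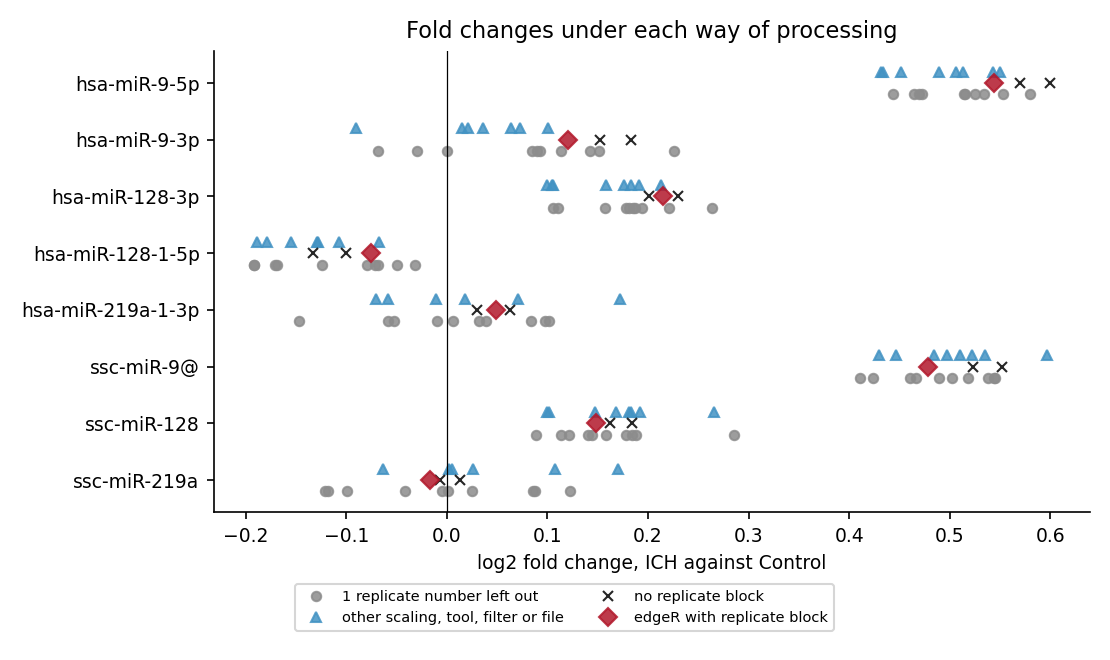
Log2 fold change (ICH against Control) of the 8 entries under each way of processing: diamonds are edgeR with the replicate block, circles leave out 1 replicate number, triangles change the scaling, tool, filter or file, and crosses drop the block. miR-9-5p and miR-9@ stay between 0.41 and 0.60, while miR-219a lies on both sides of 0.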

How the data were processed

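Total RNA of pig PBMCs was made into small RNA libraries with a NEBNext kit, per the labels' protocols. The authors deposited whole-number counts per miRNA against human and pig miRNAs, filtered counts, and RPM values of the filtered counts. Bowtie, FastQC and bcl2fastq are the tools named and GRCh38, hg38 and Sscrofa11.1 the builds, per the submitters' processing notes. Not given in the sources used here are tool versions, counting rules, the treatment of reads that match several miRNAs, the filter and what the sign @ joins. No miRNA sequences were used here.

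Groups and replicate numbers came from the sample titles. Unfiltered counts were tested with edgeR 4.0.16 under R 4.3.3 (rows kept by filterByExpr, TMM, robust quasi-likelihood fit, replicate block), with Benjamini-Hochberg adjustment over all miRNAs tested and a threshold of 0.05. SEs were derived from the fold change and F. Human-reference totals were 919313 to 2177834 reads and pig-reference totals 896960 to 2103685. Deviations of same-numbered libraries from their group means correlated at 0.129 to 0.768 (pig-reference) and 0.146 to 0.672 (human-reference), all 10 over 0.1. In both sets of counts, however, Control 4 and Control 7 correlated more with another number than with their own. Control 4 (own number 0.129 and 0.146) correlated most with ICH 2, and Control 7 (0.292 and 0.366) with ICH 3. The design text of the series describes blood before and after ICH, so the numbers were taken as pairs. The labels do not name animals, so the pairing is not established by them. For ratios, CPM were taken from library totals with 1 added before the log2, with an exact sign-flip test over pairs, whose smallest p is 0.00195. Permutation tests used 100000 resamples, and correlations log2 CPM with a prior count of 2. Alternatives used DESeq2 1.42.0, limma 3.58.1 and other scalings, filters and files. On simulated counts with 40 miRNAs changed by 1.5-fold or 2-fold, the blocked fit recovered 100% of 1.5-fold changes among 179 pig-reference miRNAs and 95% among 240 human-reference ones. Without the block the shares were 70% and 55%. Replicate effects were built into the simulated counts, which favours the block, and recovery of scarce miRNAs was not examined separately. The members, the lists and the rule for other miRNAs named (all members, list entries that passed, miR-223-3p and miR-150-5p, the 5 most alike of miR-9-5p and miR-128-3p) were chosen with earlier results of these data known, and list names were matched without species and arm. Named outside that rule were brain-linked list entries that did not pass or were not tested, miR-191-5p, and the other miR-219 entries.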

Additional observations from a re-analysis of the deposited data

Results flagged for a closer look

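Dixon's test was applied to 26 sets of 10 libraries (the log2 levels of the 8 entries and the 5 ratios, in each group), and 1 set had a library beyond its 95% critical value, where about 1 set in 20 does so by chance. It was ICH replicate 1, whose log2 ratio of miR-9-5p to miR-128-3p was -7.23, against -5.88 to -4.73 in the other ICH libraries. That library had the lowest miR-9-5p level (102.5 CPM) and the highest miR-128-3p level (15509 CPM) of the ICH group.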

How the results depend on the processing

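With the block, the rise of miR-9-5p and miR-9@ passed under every scaling, tool, filter and file tried and with each replicate number left out, at log2 fold changes of 0.41 to 0.60; without the block it passed in neither edgeR nor DESeq2 (adjusted p = 0.0595 to 0.125). Without the block edgeR called 0 pig-reference and 9 human-reference miRNAs (35 and 45 at an unadjusted p under 0.05) in place of 39 and 47, and DESeq2 without the replicate block, added after seeing the data, called 10 and 13. Leaving out 1 replicate number gave 27 to 59 pig-reference calls, 59 of them without number 4, and 32 to 61 human-reference calls. The log2 ratio of miR-9-5p to miR-9-3p changed by 0.43 with a pseudocount of 5 CPM, 0.54 in the filtered counts, 0.40 to 0.57 with a number left out, and 0.48 without pairing (adjusted p = 0.193). That of miR-9-5p to miR-223-3p ran from -0.18 to 0.073 with a number left out. Signs flipped only where the change was near 0. miR-9-3p was at -0.090 in limma on RPM and at -0.069 to 0.23 with a number left out. Human miR-219a-1-3p was at -0.059 with library totals, -0.071 with upper quartiles, -0.011 without a filter and -0.15 to 0.10 with a number left out. Pig miR-219a was at 0.11 with upper quartiles, 0.0018 in DESeq2 with the block and 0.013 without it, 0.0053 in limma voom, 0.026 without a filter, 0.17 on RPM and -0.12 to 0.12 with a number left out. miR-9-3p, miR-128-1-5p and both miR-219a entries were left out by the filter of at least 10 counts in every library, and both miR-219a entries by the filter on low counts applied to the filtered tables. The cause of these shifts was not tested.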

Other observations

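Across the 10 pairs, the change in miR-128-3p and that in miR-150-5p had a Pearson's r of -0.79 (permutation p = 0.0102, adjusted p = 0.041 over 8 relations) and a Spearman's rho of -0.49 (permutation p = 0.154, adjusted p = 0.306). Without the 2 pairs farthest from the median change of miR-128-3p the Pearson's r was -0.0028, so the relation rests on those pairs. The changes in miR-9-5p and miR-9-3p, arms of the same hairpin, had a Pearson's r of 0.63 (permutation p = 0.0508, adjusted p = 0.135) and a Spearman's rho of 0.65 (permutation p = 0.0489, adjusted p = 0.196), with r = 0.51 without the 2 farthest pairs. The change in miR-9-5p had a Pearson's r of 0.29 with that in miR-223-3p (permutation p = 0.423, adjusted p = 0.484; Spearman's rho 0.45, p = 0.191, adjusted p = 0.306) and of 0.04 with that in miR-150-5p (permutation p = 0.913, adjusted p = 0.913; Spearman's rho 0.25, p = 0.49, adjusted p = 0.49).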
